A study of Homo sapiens with 18 samples.

Results

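The genes described here encode the proteasome, its activators and the chaperones that assemble it. They are the protein-coding genes whose symbol is PSMA, PSMB, PSMC, PSMD or PSME followed by a number, together with POMP and PSMG1 to PSMG4. The rule found 48 genes among the 27085 to which transcripts of the deposited tables were assigned. They were read as 8 genes of the 20S alpha ring, 7 of the constitutive beta ring, 4 of the immunoproteasome and thymoproteasome, 6 of the ATPase ring, 3 other subunits of the base, 8 of the lid, 3 chaperones of the base, 4 activators and 5 chaperones of the 20S core. The rule reads gene symbols and no measured value, but the members were chosen with earlier results of these data known. Of the 48, 46 had enough counts to be tested. PSMA8, an alpha subunit of germ cells, had a count of 0 in every library, and PSMB11, the thymic beta subunit, had 0 to 2 counts per library, so neither was tested.

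The proteasome degrades proteins that carry ubiquitin chains. Its barrel-shaped core, the 20S particle, holds the proteolytic sites inside rings of beta subunits, capped by gated rings of alpha subunits. The 19S cap binds ubiquitin in its base and lid, removes the chain, and unfolds the substrate with a ring of ATPases. Interferon replaces the catalytic beta subunits by those of the immunoproteasome, which favours peptides for antigen presentation. When proteasomes are short, the transcription factor NFE2L1, activated by the protease DDI2, raises the genes of core and cap together, and clear cell kidney cancer cells that lack VHL are a setting in which protein turnover by ubiquitin is much studied.

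All libraries were made from 786-O, an established human line of clear cell renal carcinoma without functional VHL, so every group shares that loss and every value comes from 1 cell line. USP13, a deubiquitinase, was knocked down with hairpin sh50 or sh52, and ZHX2, a zinc finger and homeobox protein, with hairpin sh43 or sh45. Each knockdown experiment had its own control hairpin group (shCtrl), and each of the 6 groups had 3 libraries of total RNA, 18 in all. The question was how expression changes when either gene is reduced. One label text lists hairpins 43 and 45 among those against USP13, whereas the titles and conditions give them as ZHX2 hairpins, which are followed here. The labels do not say whether the 3 libraries of a group came from separate cultures, so the tests know only how these libraries vary, which may be technical. They also describe an inducible vector for USP13 hairpins without saying whether the inducer was given to the controls.

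Total estimated counts ran from 11192561 to 16511290 per library. Levels of single genes are given as CPM, counts scaled to library size with edgeR's TMM factors. The targeted genes followed the titles. USP13 measured 36.9, 34.7 and 31.8 CPM in the USP13 controls, 16.8, 17.1 and 20.5 under sh50 and 14.8, 18.1 and 17.9 under sh52, and ZHX2 measured 340.3, 344 and 344 CPM in the ZHX2 controls, 38.6, 43.4 and 38.6 under sh43 and 90.8, 82.1 and 79.6 under sh45, with no overlap between knockdown and control groups. The log2 change of USP13 was -0.92 under sh50 and -1.03 under sh52, and that of ZHX2 was -3.09 under sh43 and -2.02 under sh45. Under sh43 USP13 itself had a log2 change of -0.23, and under sh50 and sh52 ZHX2 had -0.20 and -0.17. PAX8, a marker of renal epithelium, was between 337 and 552 CPM in every library. The summed CPM of 8 renal and 786-O markers was 5554 to 5641 in the USP13 controls, 4103 to 4138 under sh50 and 4488 to 4652 under sh52. It was 4980 to 5148 in the ZHX2 controls, 4374 to 4519 under sh43 and 5182 to 5318 under sh45. KRT8, KRT18, KRT19 and VIM were called lower under both USP13 hairpins. Under both ZHX2 hairpins PAX2 was lower and EPAS1, KRT18 and PAX8 were higher. CA9 was at 0 in every library under sh50 and sh52 and not in all USP13 controls, and it was not among the genes called lower under both. In the USP13 experiment only 7 of the 8 markers had enough counts to be tested. Their part in the results was not tested. PTPRC, the defining leukocyte marker, was at 0 in all libraries of the ZHX2 experiment and at most 0.159 CPM in the other. The summed CPM of 8 leukocyte markers, of which CD68 alone was tested in the ZHX2 experiment, was 37.3 to 45.3 in the ZHX2 controls, 18.5 to 18.8 under sh43 and 57.9 to 62.2 under sh45, and 29.6 to 32.8 in the USP13 controls, 19.1 to 24.0 under sh50 and 37.0 to 38.9 under sh52, and its part in the results was not tested. Fibroblast markers summed to at most 9.5 CPM and endothelial markers to at most 0.477 CPM in every library. The share of counts from mitochondrial ribosomal RNA moved with the groups: it was 2.54 to 2.7% in the USP13 controls, 4.11 to 4.43% under sh50 and 3.54 to 3.8% under sh52, and 1.18 to 1.32% in the ZHX2 controls, 1.51 to 1.57% under sh43 and 2.83 to 3.35% under sh45. The part of this share in the results was not tested. Library 1 of sh52 had counts for 15490 genes, the fewest of all.

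Before any knockdown effect, the members differed in level per length. In the USP13 controls the deposited TPM (a scale that corrects for transcript length) was highest for PSMB4 at 591.5 ± 21.4 (SD, n = 3), followed by PSMB3 at 491 ± 13.6 and PSMA7 at 461 ± 10.9. In the ZHX2 controls PSMA7 led at 516 ± 11, before PSMB4 at 447 ± 14.3 and PSMB3 at 376 ± 2.49. The lowest of the 46 tested members by TPM was PSME4, the large activator PA200, at 21.7 ± 3.02 and 15.4 ± 1.44. The median TPM of the constitutive beta ring was 323 in the USP13 controls and 334 in the ZHX2 controls. It was 192 and 200.1 for the alpha ring, 183 and 186 for the non-ATPase subunits of the base, 103 and 95.8 for the ATPase ring, 103 and 77 for the lid and 36.0 and 35.0 for the chaperones of the base. The immunoproteasome genes were expressed in the controls, with a median TPM of 124 and 89.5.

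Nearly the whole gene group was higher under sh43, 1 of the 2 hairpins against ZHX2. Under sh43, 42 of the 46 tested members were higher and 2 were lower at an adjusted p under 0.05 (edgeR's quasi-likelihood test, adjusted over 13604 genes), against 33.5% of all genes tested called higher and 35.2% called lower. The median log2 change of the members was 0.62, and that of all genes tested was -0.02. Under sh45, the other ZHX2 hairpin, 19 members were higher and 4 lower, against 25.3% and 27.3% of all genes, with a median of 0.12. Under both ZHX2 hairpins 18 members were higher and 0 lower, where 14.1% of all genes were higher under both and 15.9% lower under both. By mean deposited TPM, some of these sh45 rises were absent. PSMA1 had 214.9 under sh45 against 218.6 in the controls, PSMA3 110.8 against 113.6, PSMB5 168.1 against 172.5 and PSMC5 158.4 against 159.1. PSMB1 (335.5 against 334) and POMP (115.2 against 113.8) were nearly level. The rest of the 18 had a higher mean TPM under sh45, among them PSMB7 (391.8 against 333.7) and PSME2 (158 against 106.7). Both hairpins are set against the same 3 control libraries. The count of members lower under both was 0 in edgeR at an adjusted and at an unadjusted p under 0.05, and 0 with DESeq2's Wald test.

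Fewer members changed under the USP13 hairpins than under the ZHX2 hairpins, and the same held for all genes tested. Genes called numbered 2942 under sh50 and 1648 under sh52 of 13715, against 9356 under sh43 and 7146 under sh45 of 13604. Among the members called under each USP13 hairpin more were lower than higher, as among all genes called. Under sh50, 2 of 46 members were higher and 9 lower, against 10.2% and 11.3% of all 13715 genes tested, and the median was -0.09. Under sh52, 1 was higher and 4 were lower, against 5.45% and 6.56% of all genes, and the median was -0.05. PSMG4 was higher under both, and PSMA2, PSMA7 and PSMC1 were lower under both, where 3.26% of all genes were higher under both and 4.16% lower. These shares are near the background for sh52 and for calls under both hairpins. Taken in either direction, the 11 of 46 members called under sh50 are also near the share of all genes called. Each library holds RNA of many cells, so fewer cells of a kind and less RNA per cell cannot be told apart.

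**Figure D1:**
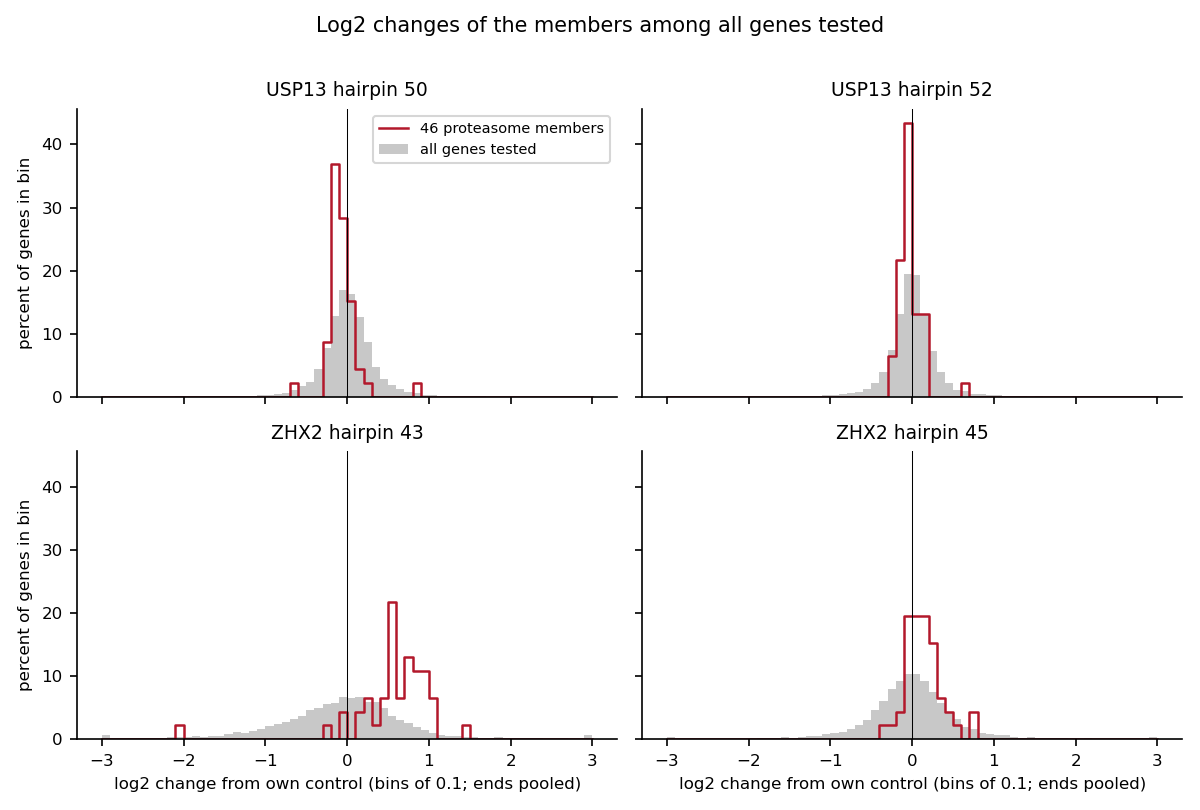
Percent of genes per bin of log2 change from the hairpin's own control, in bins of 0.1, for all genes tested (grey bars) and the 46 tested proteasome members (red line), 1 panel per hairpin. The members centre on a median of 0.62 under sh43, and on 0.12, -0.09 and -0.05 under sh45, sh50 and sh52.

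**Figure D2:**
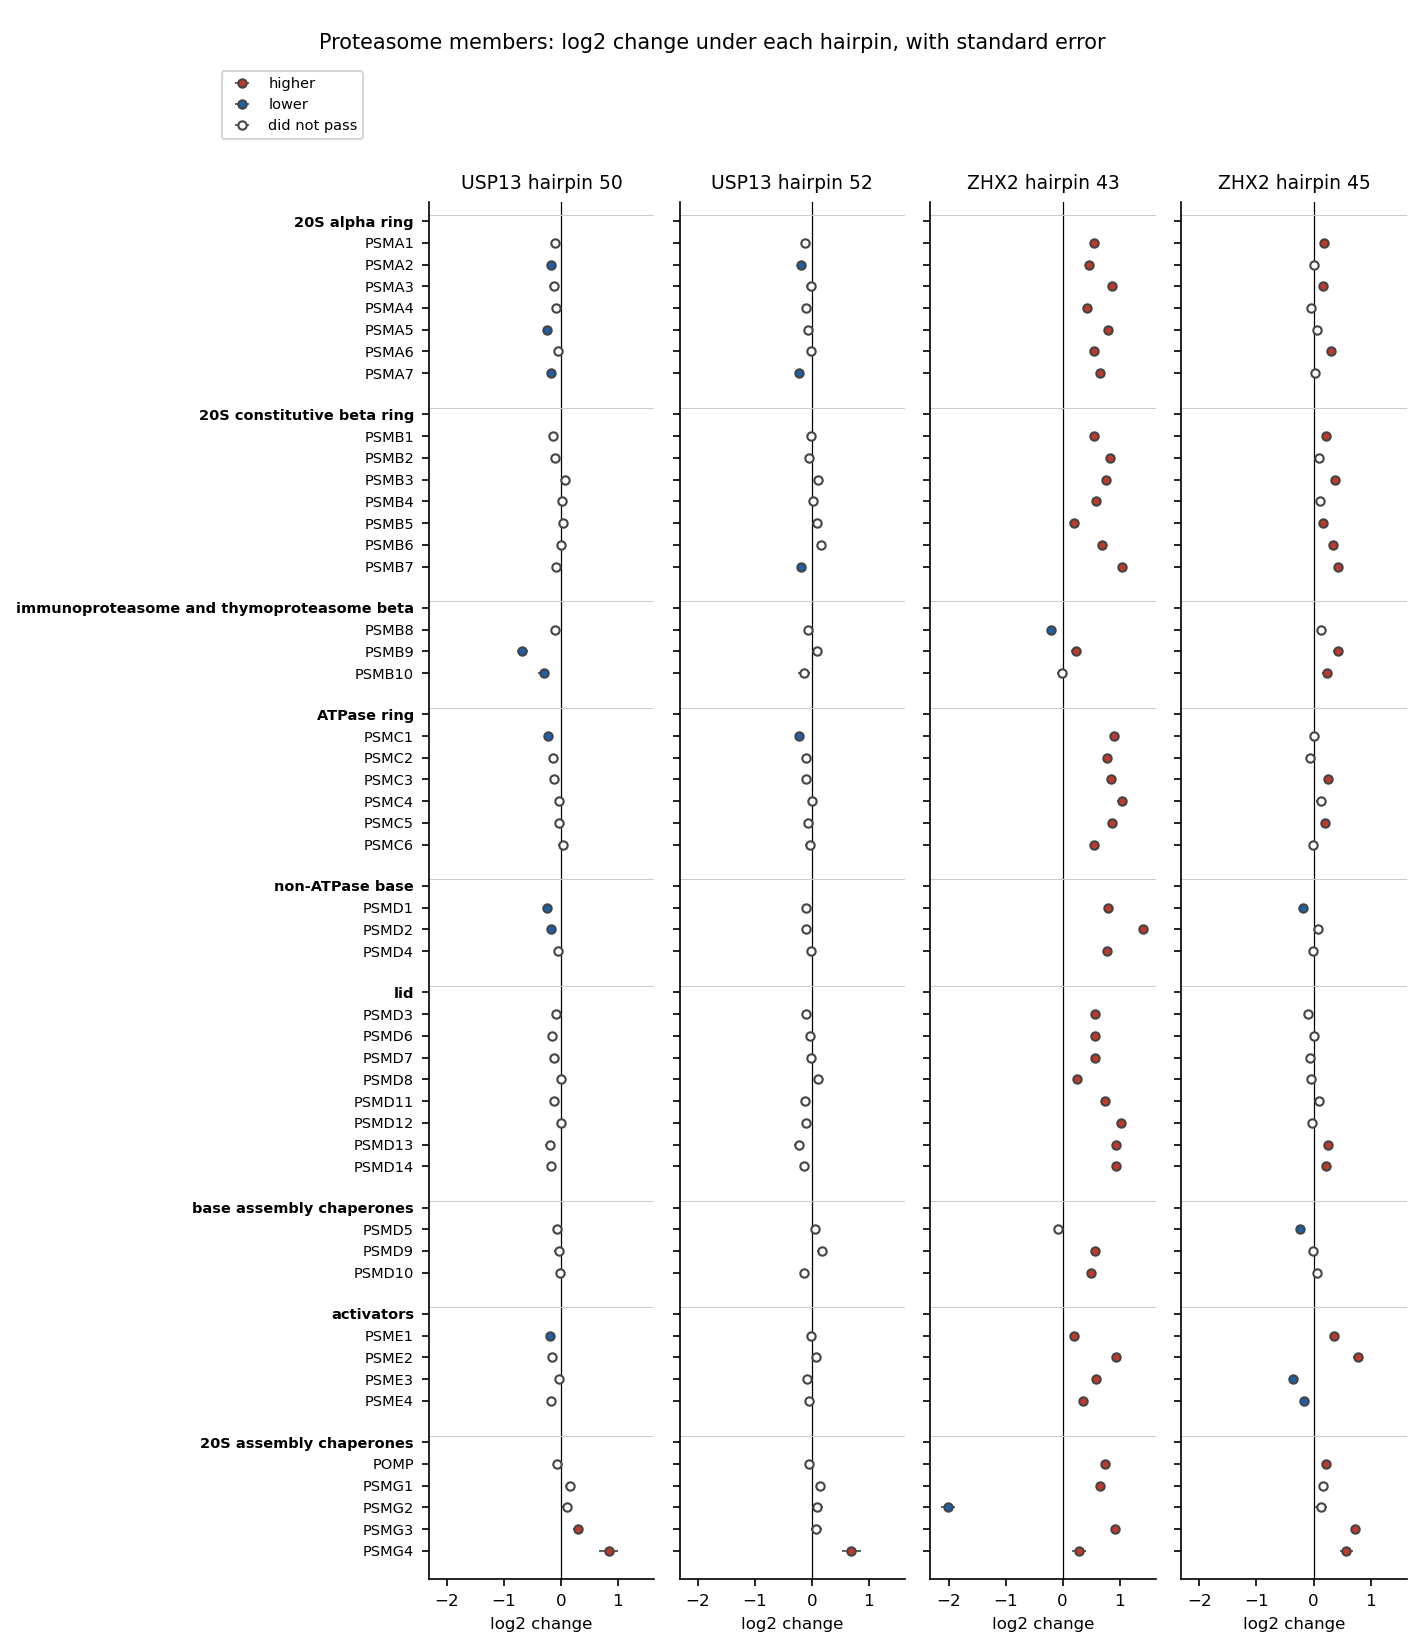
Log2 change of each tested member from its own control under the 4 hairpins, with its standard error from edgeR, ordered by subcomplex. Filled points passed at an adjusted p under 0.05 (red higher, blue lower) and open points did not. The ZHX2 hairpin sh43 panel shows 42 red points, 2 blue points and 2 open ones.

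The share of all counts that fell on the 48 members was 0.716, 0.717 and 0.729% in the sh43 libraries, against 0.448, 0.465 and 0.441% in their controls. Under sh45 it was 0.454, 0.475 and 0.479%. Summed over members, CPM was 4437 ± 123 (SD, n = 3) in the ZHX2 controls, 7222 ± 133 under sh43 and 4775 ± 143 under sh45. In the USP13 experiment the sum was 5036 ± 131 in the controls, 4726 ± 56.5 under sh50 and 4854 ± 38 under sh52. The sh43 libraries stood above every other library of the series.

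**Figure D3:**
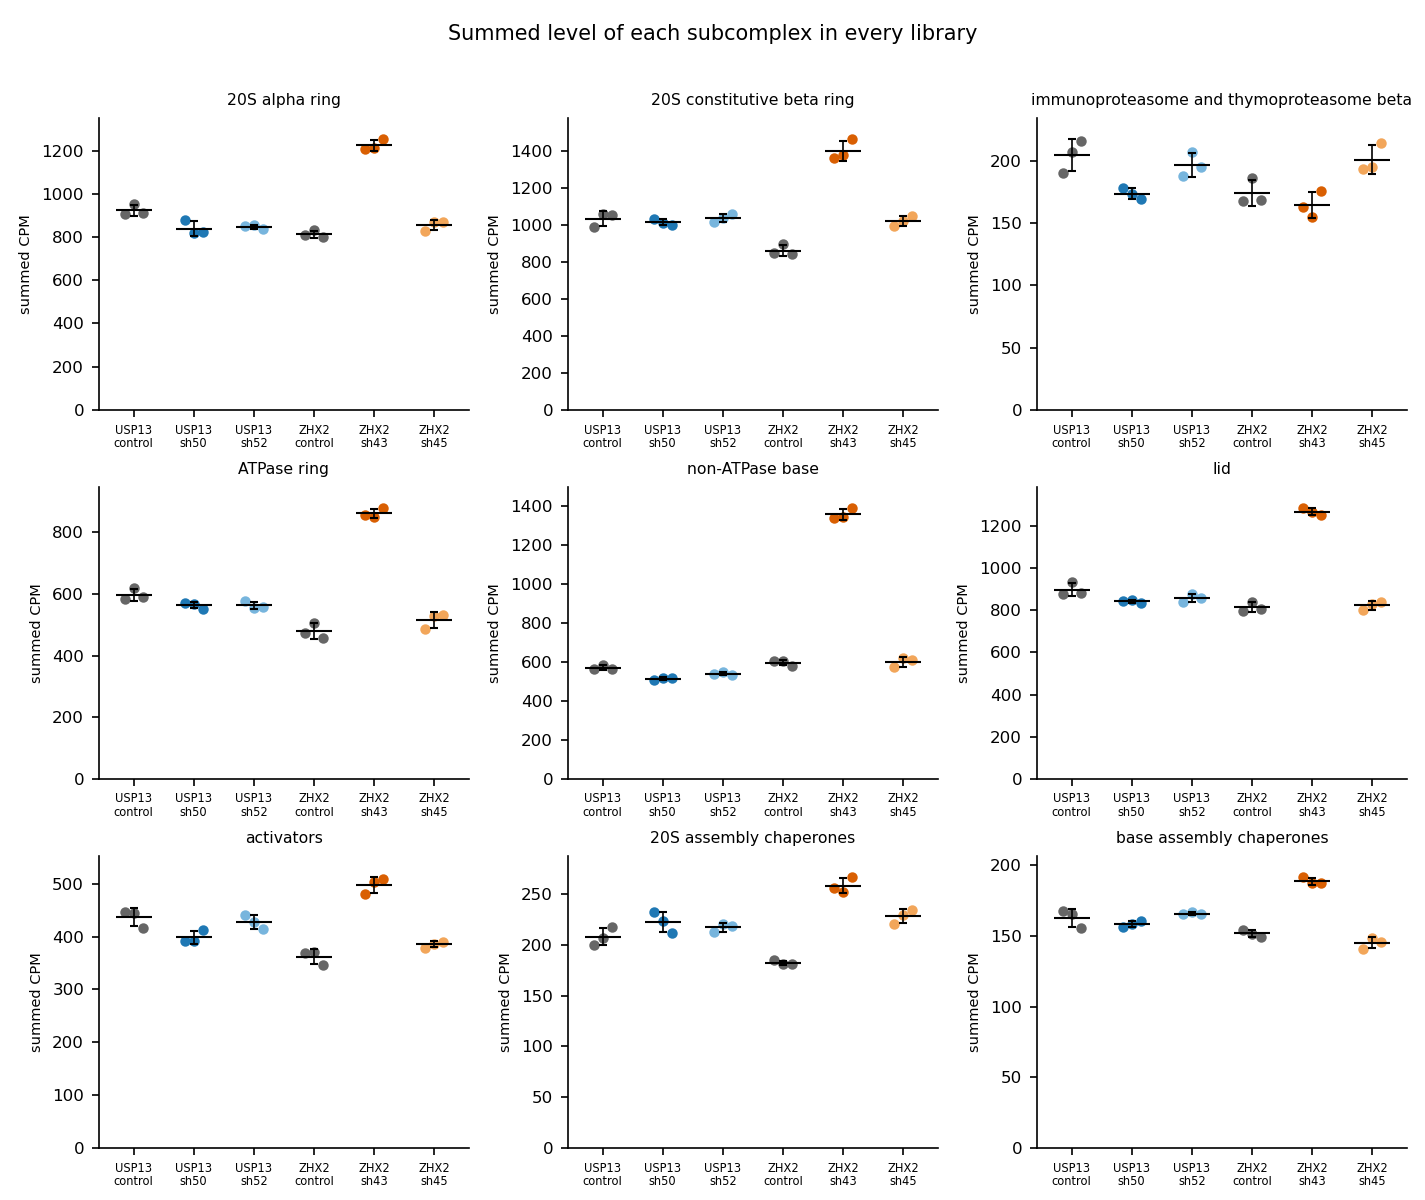
Summed CPM of the members of each subcomplex in every library (points), with the group mean (bar) and SD (error bar). The sh43 libraries are the highest of the ZHX2 experiment in every panel but that of the immunoproteasome, where they reach 164 ± 10.4 against 174 ± 10.5 in the controls.

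The bases just upstream of their annotated starts were searched for short motifs, since 42 members were higher together under sh43. RefSeq gave a window from 250 bases before to 50 bases after the start for 42 of the 48 members. In all, 9 motifs were searched on both strands, and those marked here and the windows shown were chosen after the values were seen. TGACNNNGC, the core of the antioxidant response element to which NFE2L1 binds, was in 13 of the 42 windows and in 13.6% of 27305 windows of all genes. The core of the interferon-stimulated response element, read as GAAA, any 2 bases and GAAA, was in 6 of 42 and in 3.65% of all, namely in PSMA4, PSMB4, PSMB10, PSME1, PSME2 and PSMG4. The median log2 change under sh43 was 0.57 for the 13 members with TGACNNNGC and 0.58 for the 27 tested members without it. For the 6 members with the interferon element core it was 0.36, against 0.62 for the 34 without it, and under sh45 0.29 against 0.09. The longer TGACTCAGC was in 0 of 42 windows against 0.56% of all, ATGACT followed by any 2 bases and GC in 0 against 0.68%, and TGACGTCA in 0 against 1.98%. TGANNNNGC, which contains every TGACNNNGC match, was in 26 of 42 against 42.1% of all windows, CCAAT in 19 against 35.7%, CCGGAAG in 14 against 10.7%, and TTCNNNGAA in 5 against 7.88%. A match describes the letters and not a bound site.

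The 250 upstream bases of 5 members are given 5′ to 3′ in the direction of transcription, from RefSeq on GRCh38.p14, with matches to TGACNNNGC or to the interferon element core on either strand in capitals. PSMD2 and PSMD12 were among the members that rose most under sh43 in windows that no other annotated gene overlaps, and PSME2, PSMB10 and PSMB9 are interferon-responsive genes. PSME2 also spans a microRNA gene, MIR7703. The windows are chr3:184298991-184299240, plus strand (PSMD2), chr17:67366578-67366827, minus strand (PSMD12), chr14:24146611-24146860, minus strand (PSME2), chr16:67936851-67937100, minus strand (PSMB10) and chr6:32853942-32854191, plus strand (PSMB9).
PSMD2: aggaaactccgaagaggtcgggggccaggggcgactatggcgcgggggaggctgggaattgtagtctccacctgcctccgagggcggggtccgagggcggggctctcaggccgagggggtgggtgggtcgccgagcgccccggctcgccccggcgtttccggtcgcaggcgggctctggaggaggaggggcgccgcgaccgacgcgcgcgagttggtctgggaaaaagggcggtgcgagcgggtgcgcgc
PSMD12: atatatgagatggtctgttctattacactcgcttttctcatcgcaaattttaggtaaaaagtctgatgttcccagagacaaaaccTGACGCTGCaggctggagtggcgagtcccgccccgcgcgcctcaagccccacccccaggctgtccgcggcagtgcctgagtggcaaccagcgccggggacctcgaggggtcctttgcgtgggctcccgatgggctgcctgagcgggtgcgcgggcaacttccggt
PSME2: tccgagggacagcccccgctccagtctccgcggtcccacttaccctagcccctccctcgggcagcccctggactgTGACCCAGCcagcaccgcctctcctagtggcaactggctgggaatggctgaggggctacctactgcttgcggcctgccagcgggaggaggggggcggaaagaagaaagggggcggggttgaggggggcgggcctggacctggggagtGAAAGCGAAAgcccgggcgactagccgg
PSMB10: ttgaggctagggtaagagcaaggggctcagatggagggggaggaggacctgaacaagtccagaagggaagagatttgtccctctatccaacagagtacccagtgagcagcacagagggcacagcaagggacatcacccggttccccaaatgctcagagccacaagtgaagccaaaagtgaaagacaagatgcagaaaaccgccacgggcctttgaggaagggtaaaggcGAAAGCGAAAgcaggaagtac
PSMB9: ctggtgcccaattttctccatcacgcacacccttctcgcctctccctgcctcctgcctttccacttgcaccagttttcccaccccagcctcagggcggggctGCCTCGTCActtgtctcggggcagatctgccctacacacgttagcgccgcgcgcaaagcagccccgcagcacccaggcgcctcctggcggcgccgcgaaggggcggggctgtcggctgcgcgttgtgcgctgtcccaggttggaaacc
The window of PSMD2, the member with the largest rise, held neither motif. That of PSMD12 held TGACGCTGC, which starts at position -165 counted from the gene's start. PSME2 and PSMB10 both held GAAAGCGAAA close to the start, at -28 and -21, and their log2 changes under sh43 were 0.93 and -0.01.

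The alpha ring forms the gate of the core. Under sh43 all 7 tested alpha genes were higher, with log2 changes from 0.43 to 0.86. Under sh45, 3 of them passed, all higher: PSMA1, PSMA3 and PSMA6. Of all genes tested 33.5% were higher under sh43 and 25.3% under sh45. PSMA1 measured 125.5, 121 and 131 CPM in the ZHX2 controls, 183, 188 and 183 under sh43 and 139, 141 and 149 under sh45. PSMA3 measured 46.9, 44.8 and 48.2 CPM in the ZHX2 controls, 80.6, 86.9 and 86.6 under sh43 and 50.6, 52.9 and 53.7 under sh45. PSMA6 measured 65.2, 66.1 and 60.5 CPM in the ZHX2 controls, 95, 94 and 92.3 under sh43 and 79.3, 81.1 and 75.2 under sh45. In each of the 3 genes every library of either hairpin lay above every control library. The log2 change was 0.55 ± 0.05 (SE, edgeR adjusted p = 3.8e-10) and 0.18 ± 0.05 (SE, edgeR adjusted p = 0.0042) for PSMA1, in the order sh43 and sh45. For PSMA3 it was 0.86 ± 0.06 (SE, edgeR adjusted p = 2.86e-12) and 0.17 ± 0.06 (SE, edgeR adjusted p = 0.0314), and for PSMA6 0.55 ± 0.06 (SE, edgeR adjusted p = 6.86e-09) and 0.30 ± 0.06 (SE, edgeR adjusted p = 0.000182). The sh45 call of PSMA3 ended without sh45 replicate 2 or 3 or without ZHX2 control replicate 1 or 2, with edgeR adjusted p up to 0.0789. PSMA3 overlaps PSMA3-AS1, whose reads cannot be told from its own where they overlap, since the library kit does not mark strand.

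The beta ring holds the catalytic sites. All 7 constitutive beta genes were higher under sh43, from 0.19 for PSMB5 to 1.03 for PSMB7, and 5 of 7 were higher under sh45. Among all genes the shares were 33.5% and 25.3%. PSMB7, the trypsin-like subunit, measured 147, 156.5 and 135 CPM in the ZHX2 controls, 287, 296 and 314 under sh43 and 191, 201.5 and 201 under sh45. PSMB6, the caspase-like subunit, measured 77.9, 80.1 and 78.7 CPM in the ZHX2 controls, 127, 121 and 132.5 under sh43 and 102, 99.1 and 99.7 under sh45. PSMB5, the chymotrypsin-like subunit and main target of proteasome inhibitors, measured 94.5, 95.4 and 92.9 CPM in the ZHX2 controls, 104, 103 and 116 under sh43 and 105, 101 and 111 under sh45. For PSMB6 and PSMB7 the 3 groups did not overlap and stood in the order control, sh45, sh43, whereas for PSMB5 both hairpin groups lay above the controls and overlapped each other. PSMB7 changed by 1.03 ± 0.05 (SE, edgeR adjusted p = 2.99e-15) under sh43 and 0.44 ± 0.05 (SE, edgeR adjusted p = 1.73e-07) under sh45. PSMB6 changed by 0.69 ± 0.06 (SE, edgeR adjusted p = 3.08e-11) and 0.35 ± 0.06 (SE, edgeR adjusted p = 1.08e-05), in the same order. PSMB5 changed by 0.19 ± 0.06 (SE, edgeR adjusted p = 0.0068) and 0.17 ± 0.06 (SE, edgeR adjusted p = 0.0222), and its calls ended without sh43 replicate 3 (edgeR adjusted p = 0.0652) and without sh45 replicate 3 or ZHX2 control replicate 3 (up to 0.1). Another annotated gene, LOC100129034, overlaps PSMB7 and fell from 325, 281 and 338 CPM in the ZHX2 controls to 91.8, 88.9 and 83 under sh43, and the part of reads shared between them in the PSMB7 values was not tested.

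The beta subunits PSMB1 and PSMB3, which have no active site, rose under both ZHX2 hairpins as well. PSMB1 measured 123.5, 131 and 126 CPM in the ZHX2 controls, 177, 179.7 and 198.5 under sh43 and 141, 146 and 154 under sh45. PSMB3 measured 105, 110.3 and 106 CPM in the ZHX2 controls, 177, 181 and 189.9 under sh43 and 129.5, 145 and 142 under sh45. All 6 hairpin libraries lay above the controls in both genes, and the sh43 libraries lay above those of sh45. PSMB1 changed by 0.54 ± 0.06 (SE, edgeR adjusted p = 1.84e-09) under sh43 and 0.21 ± 0.06 (SE, edgeR adjusted p = 0.00219) under sh45, and PSMB3 by 0.77 ± 0.06 (SE, edgeR adjusted p = 1.9e-12) and 0.37 ± 0.06 (SE, edgeR adjusted p = 2.6e-06). PSMB2 and PSMB4 were higher under sh43 (log2 changes 0.84 and 0.58) and did not pass under sh45 (0.10 and 0.12).

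The ATPases form the motor of the cap. All 6 were higher under sh43, from 0.54 for PSMC6 to 1.03 for PSMC4, where 33.5% of all genes were. Under sh45 2 of 6 were higher, near the 25.3% of all genes. PSMC4, an ATPase subunit, measured 54.6, 59.5 and 45.3 CPM in the ZHX2 controls, 106, 113.5 and 107 under sh43 and 52.6, 61.9 and 60.2 under sh45. PSMC3 measured 94.2, 107 and 90.5 CPM in the ZHX2 controls, 169, 169 and 188 under sh43 and 106, 118.5 and 123.5 under sh45. PSMC5 measured 105, 114 and 104 CPM in the ZHX2 controls, 195, 188 and 205 under sh43 and 116.5, 127 and 126 under sh45. The sh43 libraries lay above all others of the experiment in the 3 genes, while under sh45 PSMC4 and PSMC3 overlapped the controls and PSMC5 did not. PSMC4 changed by 1.03 ± 0.08 (SE, edgeR adjusted p = 6.07e-12) under sh43 and by 0.13 ± 0.08 (SE, edgeR adjusted p = 0.178) under sh45, which did not pass. PSMC3 changed by 0.85 ± 0.07 (SE, edgeR adjusted p = 1.17e-11) and 0.25 ± 0.07 (SE, edgeR adjusted p = 0.00265), and PSMC5 by 0.87 ± 0.06 (SE, edgeR adjusted p = 2.21e-13) and 0.20 ± 0.06 (SE, edgeR adjusted p = 0.00462). PSMC2 and PSMC5 overlap neighbours whose reads cannot be separated by strand: PMPCB beside PSMC2 changed by -0.65 under sh43 and FTSJ3 beside PSMC5 by 0.47, each on the log2 scale.

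The other subunits of the base gave the largest rise of all. PSMD2, the scaffold on which ubiquitin receptors and the deubiquitinase USP14 dock, measured 356.5, 357 and 331.5 CPM in the ZHX2 controls, 915, 917 and 951.5 under sh43 and 352, 379.8 and 375 under sh45. PSMD1, the other large scaffold of the base, measured 131, 129.8 and 133 CPM in the ZHX2 controls, 223, 231 and 229.8 under sh43 and 107, 121 and 118 under sh45. The sh43 libraries of PSMD2 lay above all others, and sh45 overlapped the controls, while for PSMD1 sh43 lay above and sh45 below every control. PSMD2 changed by 1.41 ± 0.04 (SE, edgeR adjusted p = 4.22e-20) under sh43, a fold of 2.66, and by 0.08 ± 0.04 (SE, edgeR adjusted p = 0.115) under sh45, which did not pass. PSMD1 changed by 0.80 ± 0.05 (SE, edgeR adjusted p = 2.94e-13) under sh43 and by -0.19 ± 0.05 (SE, edgeR adjusted p = 0.0041) under sh45. PSMD4, a ubiquitin receptor, was higher under sh43 (0.78) and had a log2 change of -0.01 under sh45.

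The lid removes ubiquitin from the substrate. All 8 lid genes were higher under sh43, from 0.24 for PSMD8 to 1.03 for PSMD12, and 2 of 8 were higher under sh45, where 25.3% of all genes were. PSMD12, a lid scaffold, measured 56.7, 56.6 and 54.8 CPM in the ZHX2 controls, 120.1, 112 and 110.2 under sh43 and 55.4, 53.1 and 57 under sh45. PSMD14, the deubiquitinase of the lid, measured 71.6, 73.8 and 69.2 CPM in the ZHX2 controls, 139, 138 and 134 under sh43 and 83, 82.3 and 85.5 under sh45. PSMD13, a scaffold subunit, measured 60, 66.1 and 58.2 CPM in the ZHX2 controls, 119, 114 and 119 under sh43 and 70.7, 72.8 and 75.2 under sh45. The sh43 libraries lay above all others in the 3 genes, and under sh45 PSMD14 and PSMD13 lay above the controls while PSMD12 overlapped them. PSMD12 changed by 1.03 ± 0.06 (SE, edgeR adjusted p = 3.39e-14) under sh43 and had -0.02 under sh45 (edgeR adjusted p = 0.796). PSMD14 changed by 0.94 ± 0.06 (SE, edgeR adjusted p = 4.73e-14) and 0.22 ± 0.06 (SE, edgeR adjusted p = 0.00168), and PSMD13 by 0.93 ± 0.06 (SE, edgeR adjusted p = 3.84e-13) and 0.25 ± 0.06 (SE, edgeR adjusted p = 0.00171). The summed CPM of base and lid was 1891 ± 57 in the controls, 3488 ± 30.9 under sh43 and 1939 ± 69.9 under sh45, and that of the 20S core was 1675 ± 44.8, 2625 ± 80 and 1878 ± 50 (SD, n = 3 each).

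The chaperones that load the ATPase ring did not move as one. PSMD9 and PSMD10 were higher under sh43 (0.57 and 0.50). PSMD5 had a log2 change of -0.08 under sh43, which did not pass (edgeR adjusted p = 0.27), and was lower under sh45, by -0.23 ± 0.07 (SE, edgeR adjusted p = 0.00452). PSMD10 overlaps ATG4A, which was also higher under sh43 (0.55).

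The chaperones of the 20S core held both the largest fall and some of the clearest rises under the ZHX2 hairpins. PSMG1 and PSMG2 are the partners of one heterodimer that builds the alpha ring, and PSMG3 and PSMG4 are the partners of another. PSMG2 measured 29.8, 33.4 and 30.2 CPM in the ZHX2 controls, 7.57, 5.62 and 10.3 under sh43 and 33.8, 34.5 and 34.4 under sh45. Every sh43 library lay far below every other library, whereas all 3 libraries of sh45 lay above the controls. PSMG2 changed by -2.01 ± 0.13 (SE, edgeR adjusted p = 1.63e-13) under sh43, a fold of 0.248, and by 0.14 ± 0.10 (SE, edgeR adjusted p = 0.284) under sh45, which did not pass. Both of its quantified transcripts had fewer counts under sh43, the 1124-base one with 65, 59 and 89 counts against 246, 300 and 286 in the controls, and the 982-base one with 40, 29 and 41 against 143, 160 and 154. Its neighbours on the same stretch did not fall, with log2 changes of 0.66 for SPIRE1 and 0.46 for CEP76 under sh43.

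PSMG1 was higher under sh43 (0.66) while its partner fell, so that PSMG2 made up 15.4% ± 3.52 (SD, n = 3) of the pair's summed TPM under sh43, against 53.6% ± 1.05 in the controls and 53.2% ± 0.71 under sh45. PSMG3 measured 29.3, 28.8 and 28.4 CPM in the ZHX2 controls, 51.8, 52.4 and 59.5 under sh43 and 47, 47.1 and 48.8 under sh45. POMP, which guides the beta ring, measured 84.6, 77.5 and 77.1 CPM in the ZHX2 controls, 135, 133 and 131 under sh43 and 89, 93.8 and 96.5 under sh45. PSMG4 measured 11.7, 11.9 and 16.5 CPM in the ZHX2 controls, 15.7, 15.7 and 17.9 under sh43 and 19.3, 19.9 and 20.7 under sh45. PSMG3 and POMP lay above the controls in all 6 hairpin libraries, whereas PSMG4 under sh43 overlapped control replicate 3. PSMG3 changed by 0.92 ± 0.07 (SE, edgeR adjusted p = 1.44e-11) under sh43 and 0.73 ± 0.07 (SE, edgeR adjusted p = 4.1e-09) under sh45. POMP changed by 0.74 ± 0.06 (SE, edgeR adjusted p = 1.27e-11) and 0.22 ± 0.06 (SE, edgeR adjusted p = 0.00225), and PSMG4 by 0.29 ± 0.12 (SE, edgeR adjusted p = 0.0368) and 0.57 ± 0.12 (SE, edgeR adjusted p = 0.000196). The sh43 call of PSMG4 ended with upper-quartile scaling and without sh43 replicate 3 or ZHX2 control replicate 1 or 2 (edgeR adjusted p up to 0.176).

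Activators open the core in place of the 19S cap. PSME1 and PSME2 build the interferon-inducible ring PA28, PSME3 the nuclear ring, and PSME4 is PA200. All 4 were higher under sh43, as were 33.5% of all genes. Under sh45 the pair PSME1 and PSME2 was higher while PSME3 and PSME4 were lower, against 25.3% and 27.3% of all genes. PSME2 measured 34.4, 37.2 and 33.4 CPM in the ZHX2 controls, 62.6, 65.2 and 72.5 under sh43 and 58.8, 60.4 and 60 under sh45. PSME1 measured 133, 137 and 117 CPM in the ZHX2 controls, 141, 145 and 156 under sh43 and 158, 162 and 173 under sh45. PSME3 measured 136, 141 and 132 CPM in the ZHX2 controls, 201, 210.0 and 203 under sh43 and 104, 109.6 and 105 under sh45. All 6 hairpin libraries lay above the controls for PSME2 and PSME1, and for PSME3 sh43 lay above and sh45 below every control. PSME2 changed by 0.93 ± 0.07 (SE, edgeR adjusted p = 5.96e-12) under sh43 and 0.77 ± 0.07 (SE, edgeR adjusted p = 7.1e-10) under sh45. PSME1 changed by 0.19 ± 0.06 (SE, edgeR adjusted p = 0.0064) and 0.35 ± 0.06 (SE, edgeR adjusted p = 2.13e-05), and PSME3 by 0.59 ± 0.05 (SE, edgeR adjusted p = 7.22e-11) and -0.36 ± 0.05 (SE, edgeR adjusted p = 1.51e-06). The sh43 call of PSME1 ended without ZHX2 control replicate 3 (edgeR adjusted p = 0.0754). The sh45 call of PSME4 (-0.17, edgeR adjusted p = 0.0372) was lost in DESeq2, in 4 other settings and without any 1 of sh45 replicates 2 and 3 and ZHX2 control replicates 1 and 3.

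**Figure D4:**
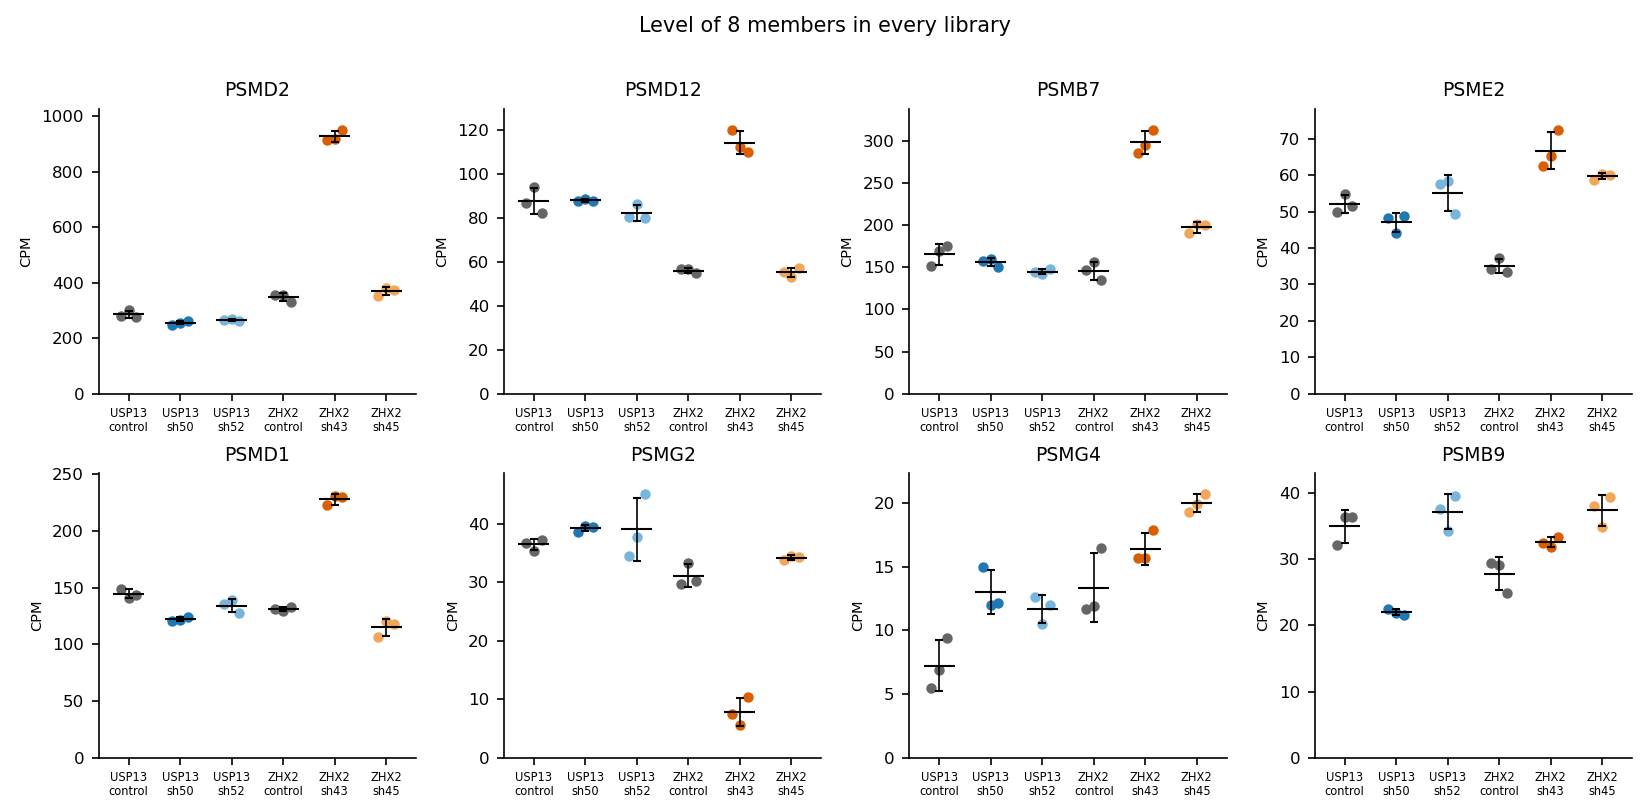
CPM of 8 members in every library (points), with the group mean (bar) and SD (error bar). The sh43 libraries of PSMD2 lie between 915 and 952 and those of PSMG2 between 5.62 and 10.3, apart from all other libraries of the ZHX2 experiment.

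Of the 3 tested interferon-inducible catalytic subunits, 1 was higher, 1 was lower and 1 did not pass under sh43. These shares are near those of all genes, 33.5% higher and 35.2% lower. PSMB8 replaces PSMB5, PSMB9 replaces PSMB6 and PSMB10 replaces PSMB7. PSMB8 measured 102, 116 and 104.5 CPM in the ZHX2 controls, 90.6, 88 and 101.5 under sh43 and 113, 117 and 123 under sh45. PSMB9 measured 29.4, 29.2 and 24.9 CPM in the ZHX2 controls, 32.4, 31.9 and 33.4 under sh43 and 38, 34.8 and 39.4 under sh45. PSMB10 measured 36.1, 41 and 39 CPM in the ZHX2 controls, 39.6, 35.2 and 40.6 under sh43 and 42.3, 42.6 and 51.9 under sh45. Under sh43 PSMB8 lay below the controls, PSMB9 above them, and PSMB10 overlapped them, and under sh45 the libraries of PSMB9 and PSMB10 lay above the controls while PSMB8 overlapped them. PSMB8, which overlaps the antisense gene PSMB8-AS1, changed by -0.21 ± 0.06 (SE, edgeR adjusted p = 0.00624) under sh43 and by 0.13 ± 0.06 (SE, edgeR adjusted p = 0.0841) under sh45, which did not pass. PSMB9 changed by 0.23 ± 0.08 (SE, edgeR adjusted p = 0.0171) and 0.43 ± 0.08 (SE, edgeR adjusted p = 7.72e-05), and PSMB10 by -0.01 ± 0.09 (SE, edgeR adjusted p = 0.905), which did not pass, and 0.24 ± 0.08 (SE, edgeR adjusted p = 0.0197). The PSMB8 call ended without sh43 replicate 2 or ZHX2 control replicate 2 (log2 change -0.27 to -0.13 over all alternatives, edgeR adjusted p up to 0.0699). The PSMB9 call under sh43 ended with upper-quartile scaling and without sh43 or control replicate 3 (up to 0.127), and the PSMB10 call under sh45 without sh45 replicate 3 or control replicate 1 (up to 0.19).

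Set against the subunit it replaces, each immunoproteasome subunit made up less of the pair under sh43. By deposited TPM, PSMB10 was 12.3, 10.8 and 11.6% of PSMB10 plus PSMB7 under sh43, against 19.9, 21 and 22.6% in the controls. PSMB8 was 44.8, 44.3 and 45% of its pair with PSMB5 against 50.2, 52.6 and 51%. PSMB9 was 16.2, 16.5 and 16% of its pair with PSMB6 against 22.1, 21.6 and 19.4%. In none of the 3 pairs did the sh43 libraries overlap the controls, and in all 3 those of sh45 did. In the USP13 experiment PSMB9 made up 17.8, 17.8 and 17.1% of its pair under sh50, against 25.8, 25.9 and 24.6% in the controls and 25.1, 22.9 and 25.6% under sh52. PSMB8 made up 52, 50.7 and 52.6% under sh50 and 53, 52.2 and 49.5% under sh52, against 55.2, 54.1 and 54.3%. PSMB10 made up 22.9, 22.7 and 22.2% under sh50 and 22.9, 28.9 and 26% under sh52, against 23.9, 26.8 and 24.8%. The sh50 libraries thus lay below the controls in all 3 pairs, and those of sh52 for PSMB8. A two-sided exact permutation test gave p = 0.1 for the 3 pairs under sh43, the 3 under sh50 and PSMB8 under sh52, the smallest that 3 libraries against 3 allow, and 0.171 after Benjamini-Hochberg adjustment over 12 comparisons.

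**Figure D5:**
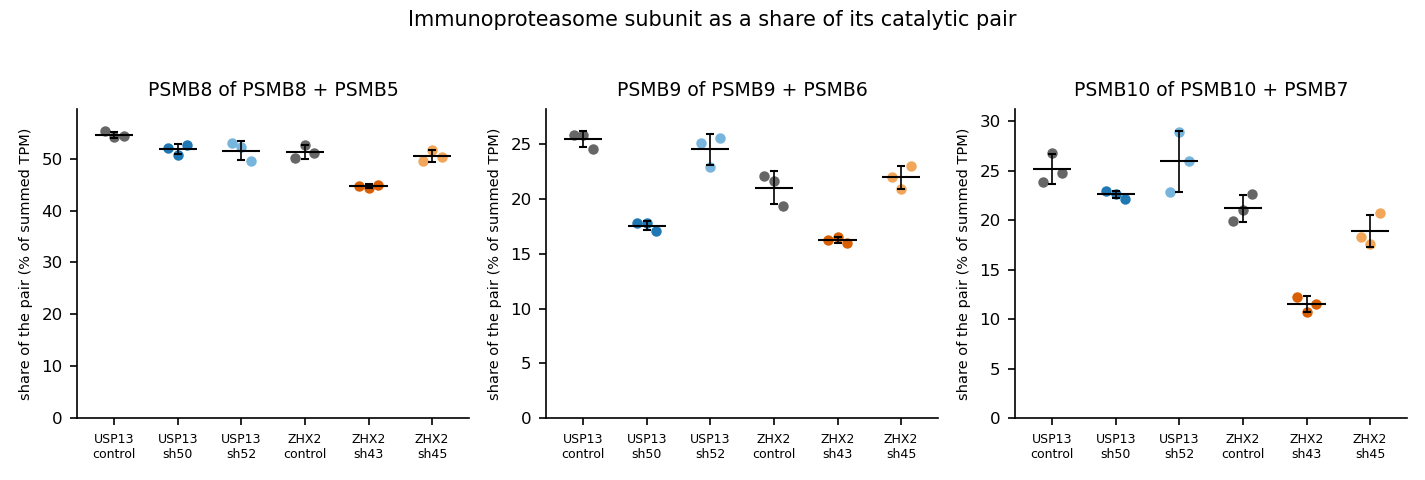
Immunoproteasome subunit as a percent of the summed TPM of the subunit and its constitutive counterpart in every library (points), with the group mean (bar) and SD (error bar). The sh43 and the sh50 libraries lie below their own controls in all 3 panels.

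In the USP13 experiment the member with the largest fall was PSMB9 under sh50. PSMB9 measured 32.1, 36.3 and 36.4 CPM in the USP13 controls, 22.4, 21.9 and 21.6 under sh50 and 37.6, 34.3 and 39.6 under sh52. All sh50 libraries lay below all others, and those of sh52 overlapped the controls. The change was -0.67 ± 0.09 (SE, edgeR adjusted p = 6.45e-06) under sh50 and 0.09 ± 0.09 (SE, edgeR adjusted p = 0.578) under sh52. PSMB10 measured 46.9, 61.3 and 57.2 CPM in the USP13 controls, 46.3, 46.3 and 42.4 under sh50 and 42.3, 57.2 and 51.6 under sh52, and it was lower under sh50, by -0.30 ± 0.10 (SE, edgeR adjusted p = 0.0328). PSMB8 had -0.10 under sh50 and -0.07 under sh52 and passed under neither. The PSMB10 call ended without any 1 of the 3 sh50 libraries or control replicate 2 or 3 (edgeR adjusted p up to 0.225), while the PSMB9 call held in all 17 alternatives, with a log2 change of -0.73 to -0.64.

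PSMG4, the member higher under all 4 hairpins, as were 0.819% of genes tested in both experiments, measured 5.46, 6.89 and 9.41 CPM in the USP13 controls, 15, 12 and 12.1 under sh50 and 12.6, 10.5 and 12 under sh52. All 6 hairpin libraries lay above the 3 controls, which differed widely among themselves. The change was 0.84 ± 0.17 (SE, edgeR adjusted p = 0.000537) under sh50 and 0.70 ± 0.17 (SE, edgeR adjusted p = 0.00722) under sh52, and the second ended without USP13 control replicate 1 (edgeR adjusted p = 0.0623). PSMG3, its partner, measured 24.7, 25 and 28.4 CPM in the USP13 controls, 33.6, 32.3 and 30.2 under sh50 and 27.4, 28.8 and 26.4 under sh52 and was higher under sh50, by 0.30 ± 0.09 (SE, edgeR adjusted p = 0.0214). That call ended without sh50 or control replicate 1 or 2 (edgeR adjusted p up to 0.099).

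The falls of PSMA2, PSMA7 and PSMC1 under both USP13 hairpins were small. PSMA7 measured 201, 215 and 219 CPM in the USP13 controls, 197, 189 and 177 under sh50 and 172, 189.5 and 184 under sh52. PSMA2 measured 136, 141 and 142.5 CPM in the USP13 controls, 131, 124 and 116 under sh50 and 121, 129 and 120.0 under sh52. PSMC1, an ATPase subunit, measured 70.5, 75.2 and 69.3 CPM in the USP13 controls, 60.4, 63.1 and 61.5 under sh50 and 64.7, 61.5 and 58.4 under sh52. In each gene both hairpin groups lay below the controls. The log2 changes under sh50 and sh52 were -0.18 and -0.22 for PSMA7, -0.18 and -0.18 for PSMA2, and -0.22 and -0.22 for PSMC1, with edgeR adjusted p between 0.0127 and 0.0421. Each of the 6 calls ended without 1 or more single libraries, USP13 control replicate 2 in all 6, with edgeR adjusted p up to 0.172. With all libraries, PSMA2 under sh52 was also lost with upper-quartile factors, and PSMA2 and PSMC1 under sh52 in a fit of only the 2 groups compared. The replicate block ended the calls of PSMA2 and PSMC1 under sh52 and of PSMA7 under sh50. The other members lower under sh50 were PSMA5 (-0.24), PSMD1 (-0.24), PSMD2 (-0.16) and PSME1 (-0.19), of which PSMD1 passed in all 17 alternatives. The calls of PSMA5, PSMD2 and PSME1 ended without sh50 replicate 2 or USP13 control replicate 2 and without 1 or 2 further libraries each (edgeR adjusted p up to 0.163). The other member lower under sh52 was PSMB7 (-0.19), whose call ended without any 1 of the 3 sh52 libraries, without USP13 control replicate 2 or 3 and without sh50 replicate 1, and also with upper-quartile factors, the replicate block and a fit of only the 2 groups compared (edgeR adjusted p up to 0.154). Of the 8 lid genes 0 passed under either USP13 hairpin in edgeR or DESeq2, and 2 were lower at an unadjusted p under 0.05 in edgeR under each.

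The hairpins against the same gene differed in unequal measure. Between the ZHX2 hairpins, 39 of 46 members were lower under sh45 than under sh43 and 6 were higher, against 32.7% and 34.2% of all genes tested. The 6 higher ones were PSMG2, PSMG4, PSME1 and the immunoproteasome genes PSMB8, PSMB9 and PSMB10, and PSMB5 was the member that did not pass. The difference, sh45 minus sh43, was 2.15 ± 0.13 (SE, edgeR adjusted p = 5.09e-14) for PSMG2, -1.33 ± 0.04 (SE, edgeR adjusted p = 3.8e-19) for PSMD2, -1.05 ± 0.06 (SE, edgeR adjusted p = 3.26e-14) for PSMD12 and -0.98 ± 0.05 (SE, edgeR adjusted p = 6.67e-15) for PSMD1. Of the members higher under sh45, PSMB9, PSMB10, PSME1 and PSMG4 lost the call without single libraries, among them sh43 replicate 2 and sh45 replicate 3 in all 4 genes (edgeR adjusted p up to 0.179), and PSMB9 and PSMG4 in DESeq2. PSMD5, PSME2 and PSMG3, lower under sh45, lost it in some settings as well (edgeR adjusted p up to 0.312). In all, 21 of 46 members were higher under sh43 and did not pass under sh45, as were 14.4% of all genes tested, and 3 (PSMD1, PSME3 and PSME4) were higher under sh43 and lower under sh45, as were 4.95% of all genes. ZHX2 itself was lower under sh43 than under sh45 (difference 1.06 on the log2 scale), at 40.2 ± 2.73 against 84.2 ± 5.87 CPM (SD, n = 3), and the part of this in the difference was not tested. Between the USP13 hairpins 1 member was higher under sh52 than under sh50 and 0 were lower, against 5.48% and 4.74% of all genes. It was PSMB9, with a difference of 0.76 ± 0.09 (SE, edgeR adjusted p = 3.61e-06). The count of lower members was also 0 with DESeq2, and 1 member, PSMG3, was lower at an unadjusted p under 0.05 in edgeR.

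The mean response to the USP13 hairpins was set against that to the ZHX2 hairpins, each from its own control, in a fit of all 18 libraries. In this difference 38 of 46 members were lower in the response to USP13 knockdown and 1 was higher, against 20.7% and 22.7% of all 14207 genes tested. The member with the higher value was PSMG2, at 1.02 ± 0.13 (SE, edgeR adjusted p = 9.62e-08). The largest negative differences were -0.90 ± 0.09 (SE, edgeR adjusted p = 9.85e-10) for PSME2, -0.90 ± 0.06 (SE, edgeR adjusted p = 7.97e-15) for PSMD2 and -0.89 ± 0.07 (SE, edgeR adjusted p = 3.11e-12) for PSMB7. PSMD2 measured 281, 300.2 and 276.5 CPM in the USP13 controls, 249, 256 and 261 under sh50 and 265, 271 and 261 under sh52. PSME2 measured 49.9, 54.9 and 51.7 CPM in the USP13 controls, 48.3, 44 and 48.8 under sh50 and 57.5, 58.5 and 49.3 under sh52. PSMB7 measured 151, 169.5 and 175 CPM in the USP13 controls, 158, 159.8 and 151 under sh50 and 144.5, 142 and 148.5 under sh52, and PSMG2 36.8, 35.5 and 37.3 CPM in the USP13 controls, 38.6, 39.7 and 39.5 under sh50 and 34.6, 37.7 and 45.1 under sh52. In the USP13 experiment PSMD2 passed under sh50 (-0.16) and PSMB7 under sh52 (-0.19), both lower, and PSME2 and PSMG2 passed under neither hairpin. The differences of PSMB10, PSMC6 and PSME3 lost the call without single libraries, among them ZHX2 control replicate 1 in all 3 (edgeR adjusted p up to 0.221). The mean over the ZHX2 hairpins joins responses that differed, and the target gene and the experiment cannot be told apart. In 8 members (PSMA2, PSMA5, PSMA7, PSMB9, PSMC1, PSMD1, PSMD2 and PSME1) the value was lower under sh50 and higher under sh43, a pattern that 447 of 13182 genes tested in both experiments showed (3.39%).

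Genes that work with the proteasome were read from lists outside the rule. Their counts stand against the shares of all genes called higher and lower, 33.5% and 35.2% under sh43, 25.3% and 27.3% under sh45, 10.2% and 11.3% under sh50 and 5.45% and 6.56% under sh52. Of 16 proteasome-associated factors, 13 were higher and 2 lower under sh43, and 5 higher and 6 lower under sh45. Under sh50 1 was higher and 1 lower. Under sh52 0 passed in edgeR, and 1 was lower at an unadjusted p under 0.05. ADRM1, the ubiquitin receptor of the cap, rose from 107 ± 8.13 CPM in the controls to 249 ± 2.17 under sh43 and 138 ± 15.1 under sh45 (SD, n = 3), with log2 changes of 1.22 and 0.37. PSMF1 and SEM1 were also higher under both ZHX2 hairpins (0.51 and 0.39 under sh43), and the shuttle factor UBQLN2 was lower under both (-0.64 under sh43). Of 6 ubiquitin genes and activating enzymes, 5 were higher and 0 lower under sh43 in edgeR, also at an unadjusted p under 0.05, with UBA6 at 0.93. Under sh45 3 were higher and 1 lower, under sh50 1 was higher and 2 were lower, and under sh52 0 passed and 1 was lower at an unadjusted p under 0.05.

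Of 16 genes of the NFE2L1 pathway, 9 were higher and 3 lower under sh43, with a median of 0.19, and 7 higher and 4 lower under sh45, with a median of 0.16. Under sh50 1 was higher and 1 lower, and under sh52 2 were higher and 1 lower. The share lower under sh45 is near that of all genes. NFE2L1 itself was higher under sh43, by 0.18 ± 0.04 (SE, edgeR adjusted p = 0.000571), and did not pass under sh45 (0.05). DDI2 was higher under sh43 (0.66, edgeR adjusted p = 0.00138) and lower under sh45 (-0.46, edgeR adjusted p = 0.0419), from a mean of 6.64 ± 2.17 CPM in the controls. NGLY1, which deglycosylates NFE2L1, had 0.00 under sh43 and rose under sh45 (0.40). MAFF, MAFG and MAFK, the small MAF partners of NFE2L1, and UFD1 were higher under both ZHX2 hairpins, with MAFF at 1.60 and 1.27. BACH1 and NFE2L2 were lower under both, and VCP, the segregase that extracts NFE2L1 from the membrane, was lower under both USP13 hairpins (-0.18 and -0.21).

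Of 19 genes of interferon-induced antigen presentation, 1 was higher and 10 were lower under sh50, and 3 were higher and 2 lower under sh52. Under sh43 the counts were 4 higher and 8 lower, against 33.5% and 35.2% of all genes. Under sh45 they were 11 higher and 5 lower, against 25.3% and 27.3%. The shares lower under both ZHX2 hairpins, each taken alone, are near those of all genes. IRF1 was higher under both ZHX2 hairpins (1.06 and 0.22), as were IRF2, TAP2 and IFNGR1, and NLRC5 and JAK1 were lower under both. In the same libraries PSMB9 and PSME2 were higher and PSMB8 was lower under sh43, as given above. Under sh50 IRF1 (-0.40) and PSMB9 were lower. ERAP1 and IFNGR1 were lower under both USP13 hairpins.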

How the data were processed

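RNA-seq was made from 18 libraries of 786-O cells, in 6 groups of 3. Per the file headers, the authors deposited for each library, per RefSeq transcript, an estimated count of reads and a TPM value. Of tools, the submitters' processing notes list Salmon 0.11.3, STAR 2.5.2b, DESeq2 1.14.1 and cutadapt 1.12, and as build hg19, with no role or order. The library kit (TruSeq RNA v2, per the labels' protocols) does not mark strand, so overlapping genes share reads.

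The estimated counts of 60422 transcripts, rounded to integers, were added up per gene, with 59301 transcripts named from a RefSeq table and 684 from GENCODE. The 437 unnamed transcripts, 0.0854 to 0.12% of counts per library, were left out. Deposited TPM was summed likewise. Each experiment was fitted apart with edgeR 4.0.16 (R 4.3.3): genes kept by filterByExpr, TMM factors, a quasi-likelihood test (glmQLFit, glmQLFTest) on all 9 libraries of the experiment, and Benjamini-Hochberg adjustment over all genes tested, with calls at an adjusted p under 0.05. The standard error is the log2 change divided by the square root of F. The difference between the experiments' responses came from a fit of all 18 libraries. Shares of the catalytic pairs and their exact permutation tests were computed in R, and shares of the chaperone and PA28 partners in Python 3.11.15. The fit was tested on simulated data. Replicate pairs of a group differed by more than sampling noise (chi-square per degree of freedom 2.33 to 6.68 over 18 pairs).

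Alternatives were DESeq2 1.42.0 (Wald test and size factors), upper-quartile factors, effective length offsets, no filter and a filter of 1 CPM, a replicate block, fits of only the 2 groups compared and leaving out each library. Per-library values are given for members called in the same direction under both hairpins of an experiment, for PSMB5 to PSMB10, PSME1 and PSME2, for the 4 largest called differences between hairpins or experiments, and for the 3 largest called changes per hairpin. Genes of other lists are named where they passed under both hairpins of an experiment or are defining regulators, and some that meet this rule are not reported here. Values of PSME3, overlapping genes and partner shares were added after they were seen. The members, lists and tests were chosen with earlier results of these data known. Promoter windows are RefSeq's on GRCh38.p14 and were not matched to the authors' build.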

Additional observations from a re-analysis of the deposited data

Results flagged for a closer look

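Responses differed between hairpins against the same gene by a test of the difference itself. Between the USP13 hairpins 1 member differed, PSMB9, with a log2 difference of 0.76 for sh52 minus sh50. Of all 13715 genes tested there, 1401 differed. Between the ZHX2 hairpins 45 of 46 members differed, as did 9093 of all 13604 genes tested. The largest differences among members for sh45 minus sh43 were 2.15 for PSMG2, -1.33 for PSMD2, -1.05 for PSMD12 and -0.98 for PSMD1. PSMG2 passed under sh43 and under none of sh45, sh50 and sh52.

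Between the responses to USP13 and ZHX2 knockdown 39 of 46 members differed, as did 6168 of all 14207 genes tested. The largest differences, USP13 minus ZHX2, were 1.02 for PSMG2, -0.9 for PSME2, -0.9 for PSMD2 and -0.89 for PSMB7. Groups of 3 libraries were not tested for single libraries that stand apart.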

How the results depend on the processing

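Of the 9 counts of called members, those for sh43, sh45, both ZHX2 hairpins, the difference between the ZHX2 hairpins and the difference between experiments stayed within 1.5 times their value in every alternative. The 5 members called under sh52 became 2 in a fit of only the 2 groups compared and 3 with upper-quartile factors. The labels do not say whether the replicate numbers pair the samples. In each experiment 0 of 9 same-number pairs and 0 of 18 other pairs correlated above 0.1 in their deviations from group means. With group means of 3 libraries, this cannot decide whether same-number samples shared a culture or batch. With the replicate block the count for sh52 was 2 and that for both USP13 hairpins was 1, in place of 5 and 4, and for sh43 it stayed at 44. Leaving out 1 library at a time gave 41 to 44 members called under sh43 (44 with all libraries), 19 to 27 under sh45 (23), 15 to 20 under both ZHX2 hairpins (18), 39 to 45 between the ZHX2 hairpins (45) and 36 to 41 between the experiments (39). It gave 3 to 12 under sh50 (11), with 3 without sh50 replicate 2 or without USP13 control replicate 2, and 1 to 5 under sh52 (5), with 1 without USP13 control replicate 2. It gave 1 to 3 under both USP13 hairpins (4), with 1 without sh50 replicate 2 or 3 or without USP13 control replicate 1 or 2, and 1 to 2 between the USP13 hairpins (1), with 2 without sh50 replicate 1 or sh52 replicate 2 or 3. The cause of these shifts was not tested, beyond the smaller number of libraries. In every alternative run, 39 of 44 members kept their call under sh43, 19 of 23 under sh45, 3 of 11 under sh50 and 0 of 5 under sh52. No called member changed direction, and 127 values that passed in neither setting changed sign and were counted as unchanged. PSMG4 had 70 counts in its lowest library and PSMG2 88, the lowest of the 46 tested members.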

Other observations

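The control groups of the experiments were unlike in some of the same genes, although both hold 786-O cells with a control hairpin. PSMD12 measured 87.6 ± 5.9 CPM (SD, n = 3) in the USP13 controls and 56 ± 1.05 in the ZHX2 controls. PSME2 measured 52.1 ± 2.54 and 35 ± 1.97, and PSMG4 7.25 ± 2 and 13.4 ± 2.7. ZHX2 stood at 155 ± 5.2 CPM in the USP13 controls against 343 ± 2.17 in the ZHX2 controls. These levels were scaled within each experiment and the difference was not tested.

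The shares of the chaperone partners PSMG3 and PSMG4 are given here for both experiments. PSMG4 was 28% ± 4.69 (SD, n = 3) of the pair's summed TPM in the USP13 controls, 37.6% ± 3.18 under sh50 and 38.7% ± 1.83 under sh52. In the ZHX2 experiment it was 43.6% ± 5.1 in the controls, 34.3% ± 1.68 under sh43 and 42.6% ± 1.82 under sh45. PSME2 made up 27% ± 0.9 of the PA28 pair in the ZHX2 controls, 38% ± 0.66 under sh43 and 33.1% ± 0.94 under sh45. These shares were computed after the values were seen and carry no test.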
